A study of Homo sapiens with 12 samples.

Results

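Heme oxygenase 1 mRNA (HMOX1) was studied together with 9 other genes that break heme down, build it, move it out of the cell or regulate these steps. They are HMOX2, BLVRA, BLVRB, BACH1, NFE2L2, KEAP1, FECH, ALAS1 and FLVCR1. The 10 genes were taken by name from an expression table of 36866 genes, and all 10 were listed and were measured well enough to be tested in every comparison. The study sequenced poly(A) mRNA from 2 acute myeloid leukemia cell lines with complex karyotypes, THP-1 and U-937, to learn how honokiol changes their gene expression. Honokiol, a biphenolic compound from magnolia bark, was given for 24 h, and control cells received 0.1% DMSO, the solvent, for the same time. There were 3 libraries for each of 4 groups, namely THP-1 with DMSO, THP-1 with honokiol, U-937 with DMSO and U-937 with honokiol. The labels list doses of 20 and 35 μM without naming the line. In the study's other assays THP-1 received 20 μM and U-937 received 35 μM, and if the sequenced cells were dosed in that way, line and dose cannot be told apart. The labels do not say whether the 3 libraries of a group came from separate cultures, and the p-values then measure the spread between libraries, which may be technical.

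Heme is an iron-containing ring that serves as the cofactor of hemoglobin, cytochromes and many enzymes, and free heme is toxic to membranes. Heme oxygenase opens the ring and releases iron, carbon monoxide and biliverdin, and biliverdin reductase turns biliverdin into bilirubin, an antioxidant. HMOX1 is the inducible heme oxygenase. Its gene is silenced by BACH1, a repressor that heme itself displaces and destabilizes, and is switched on by NRF2, the product of NFE2L2, which KEAP1 otherwise marks for degradation. Myeloid cells such as macrophages use the pathway to handle the heme of engulfed red cells, and the iron it frees has linked HMOX1 to ferroptosis, an iron-dependent form of cell death.

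The estimated counts summed to between 57406966 and 75065752 per library, and those of the 10 genes lay between 314 and 20042. The share of counts from the mitochondrial genome was 13.7% for THP-1 DMSO replicate 1 and 12.6% for U-937 DMSO replicate 1, while it lay at 5.61% to 7.55% elsewhere. Results that rest on DMSO libraries are also given without both of these where that ended a call. All 10 myeloid markers were listed, with a summed level of 369 to 747 FPKM in THP-1 and 390 to 781 FPKM in U-937 libraries, although MPO stayed under 0.5 FPKM in U-937. These sums hide differences of single markers between the lines. With DMSO, LYZ had a mean of 489 FPKM in U-937 and 121 FPKM in THP-1, and CSF1R 1.66 and 41.6 FPKM. The median log2 difference of the 10 markers, U-937 against THP-1 with DMSO, was -1.80, against -0.05 for all genes tested. The erythroid markers HBB, HBG1 and AHSP were at 0 or not listed in all groups, and the 8 erythroid markers summed to at most 1.96 FPKM. Of these 8, KLF1 alone reached 0.5 FPKM in a library, with up to 0.63 FPKM in THP-1 and 1.56 FPKM in U-937. The T cell markers summed to at most 0.52 FPKM in THP-1 and to at most 4.15 FPKM in U-937. Among them TRAC alone reached 0.5 FPKM, in U-937 only and with up to 4.05 FPKM, while CD3D and CD3E were at 0 there. Of the 3 B cell markers, CD79A and PAX5 were detected in every group with a sum of 1.5 to 5.3 FPKM, while MS4A1 was not listed. In bulk RNA, fewer cells that express a gene and less of its RNA per cell cannot be told apart.

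Promoter sequences were examined because the regulators of this pathway bind DNA. NRF2 and BACH1 pair with small MAF proteins on antioxidant response elements, searched here as TGACNNNGC, and on the related core TGANTCA. Both were searched on both strands in the 250 bases before each RefSeq start site of GRCh38.p14. TGANTCA reads the same on the opposite strand, and 1 stretch of DNA can hold both motifs. Of the 10 genes 9 had an entry by symbol, with 14 windows in all, and HMOX1 had none. TGANTCA was found in 1 of the 14 windows, in BACH1, against 6.57% of 35116 windows of all genes. TGACNNNGC was found in 2 of the 14, in KEAP1 and FECH, against 10.9% of all windows. The windows of BLVRB and BACH1 are shown because these are the genes other than HMOX1 whose honokiol difference had an adjusted p-value under 0.05 over both lines. BACH1 had 3 windows, and the only one of them with a match is shown. The windows lie at chr19:40465746-40465995 on the minus strand and at chr21:29298672-29298921 on the plus strand, and they are written 5′ to 3′ with the matched motif in capitals.
BLVRB: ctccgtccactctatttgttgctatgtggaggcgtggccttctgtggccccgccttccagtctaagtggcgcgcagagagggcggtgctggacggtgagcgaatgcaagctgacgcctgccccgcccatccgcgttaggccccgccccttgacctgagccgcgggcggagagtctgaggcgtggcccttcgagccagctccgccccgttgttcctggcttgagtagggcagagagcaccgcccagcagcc
BACH1: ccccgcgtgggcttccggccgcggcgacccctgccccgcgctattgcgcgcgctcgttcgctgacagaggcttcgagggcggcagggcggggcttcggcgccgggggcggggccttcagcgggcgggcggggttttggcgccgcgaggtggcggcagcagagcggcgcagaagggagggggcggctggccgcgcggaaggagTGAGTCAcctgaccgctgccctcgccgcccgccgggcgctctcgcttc
The capitals in the BACH1 window mark TGAGTCA, whose first base is 48 bases before the start site. This start site is one of several for the gene and lies inside the span that the table gives for BACH1. The BLVRB window holds neither motif. The other matches were TGACACGGC and, on the opposite strand, GCTTAGTCA in 1 window of KEAP1 and GCGAGGTCA in the window of FECH. A match is a description of the letters and shows no binding.

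HMOX1, the inducible heme oxygenase, was the gene of the 10 that differed most between honokiol and DMSO, and it rose in the test over both lines. Levels are given as FPKM, which scales fragments to the length of the transcript and to the mapped fragments of the library. HMOX1 (ENSG00000100292, chr22:35380361-35390293, plus strand) was measured at 4.03, 1.87 and 3.96 FPKM in THP-1 with DMSO and at 9.7, 14.28 and 10.17 FPKM with honokiol. In U-937 it was at 2.03, 2.87 and 2.96 FPKM with DMSO and at 6.44, 9.46 and 7.17 FPKM with honokiol. Every honokiol library was above every DMSO library of both lines. The group means were in the order U-937 with DMSO (2.62 ± 0.513 FPKM, SD, n = 3), THP-1 with DMSO (3.29 ± 1.23), U-937 with honokiol (7.69 ± 1.58) and THP-1 with honokiol (11.4 ± 2.52). The libraries of the 2 DMSO groups overlapped, and those of the other neighbours in this order did not.

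The estimated counts were compared in the quasi-likelihood test of edgeR, with Benjamini-Hochberg adjustment over every gene tested, and a gene was called when its adjusted p-value was under 0.05 and its absolute log2 fold change over 1. The mean honokiol change of HMOX1 over both lines was 1.55 on the log2 scale (2.93-fold, standard error 0.22, 95% interval 1.07 to 2.03, adjusted p = 0.00684). It ranked 34 of 16283 genes by p-value. HMOX1 was the only one of the 10 genes called, where 0.762% of all genes were called in this comparison and 0.577% were called as higher. With p left unadjusted and under 0.05, 5 of the 10 were higher and 1 lower, where 10.3% of all genes were higher and 10.2% lower. It was called again in each of the 12 fits that left out 1 library, with an adjusted p-value of 0.00703 to 0.0207 in the same test. Without both libraries of high mitochondrial share the change was 1.60 (adjusted p = 0.0215 in the quasi-likelihood test of edgeR).

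Within a single line, 0 of the 10 genes were called in the quasi-likelihood test of edgeR, where the rate over all genes was 0.0411% for THP-1 and 0.0947% for U-937. With p left unadjusted and under 0.05, 5 of the 10 were higher and 0 lower in THP-1, where 6.84% of all genes were higher and 6.22% lower. In U-937 3 were higher and 1 lower, where the rates over all genes were 8.25% and 8.44%. DESeq2 called 2 genes in THP-1 (HMOX1 and BLVRB) and 1 in U-937 (HMOX1), and limma-trend called 0 in each line. For HMOX1 the log2 fold change was 1.68 in THP-1 (95% interval 0.90 to 2.46, adjusted p = 0.154 in the quasi-likelihood test of edgeR). It was 1.43 in U-937 (95% interval 0.92 to 1.94, adjusted p = 0.0637).

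**Figure D1:**
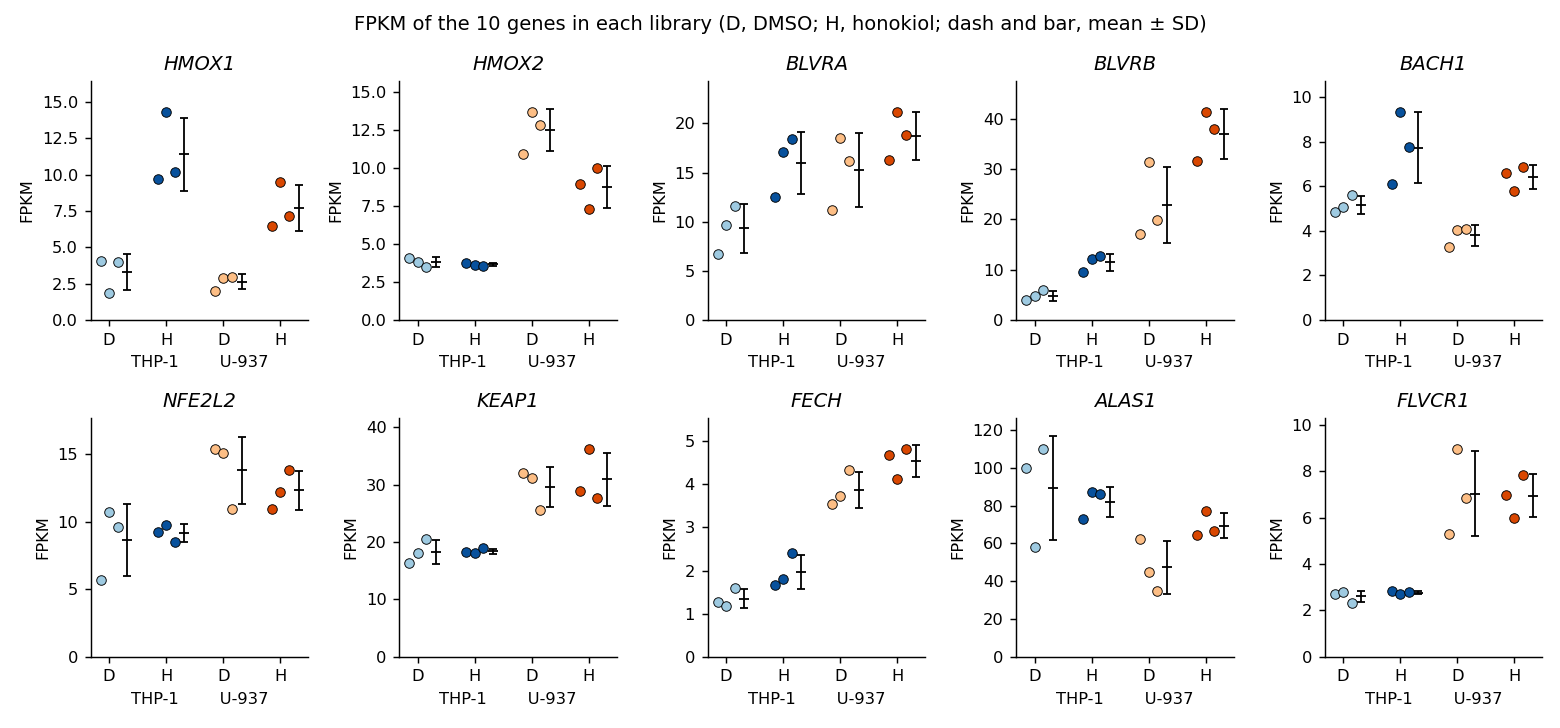
FPKM of each of the 10 genes (y axis, linear, from 0) in the 3 libraries of each group, with D for DMSO and H for honokiol; points are libraries, and the dash with its bar is the mean ± SD. HMOX1, BLVRB and BACH1 are the genes whose honokiol libraries all lie above the DMSO libraries in both lines.

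HMOX2, the heme oxygenase made constitutively, did not share the direction of HMOX1. HMOX2 (ENSG00000103415, chr16:4474690-4510346, plus strand) was at 4.1, 3.85 and 3.51 FPKM in THP-1 with DMSO and at 3.75, 3.64 and 3.58 FPKM with honokiol, and these libraries overlapped. In U-937 it was at 10.95, 13.67 and 12.82 FPKM with DMSO and at 8.96, 7.31 and 10.01 FPKM with honokiol, so that each honokiol library was below each DMSO library. The difference did not pass the test (log2 fold change -0.59 in U-937, 95% interval -0.98 to -0.21, adjusted p = 0.162, and -0.37 over both lines, adjusted p = 0.096, both in the quasi-likelihood test of edgeR). DESeq2 gave an adjusted p of 0.0374 for U-937 and of 0.0284 over both lines. HMOX2 shares 6.01% of its exon bases with NMRAL1 on the opposite strand, a gene at up to 5.81 FPKM, and the sources do not say whether the counting used strand.

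The balance of the 2 heme oxygenases was compared as the ratio of their FPKM within each library, which does not depend on the scaling of libraries. With DMSO the ratio HMOX1/HMOX2 was 0.983, 0.486 and 1.13 in THP-1 and 0.185, 0.210 and 0.231 in U-937. With honokiol it was 2.59, 3.92 and 2.84 in THP-1 and 0.719, 1.29 and 0.716 in U-937. Every honokiol library thus had a higher ratio than the DMSO libraries of its own line, and in U-937 the honokiol ratios came to the range that THP-1 had with DMSO or somewhat above it. Over both lines the ratio was 3.98-fold higher with honokiol, a difference of 1.99 on the log2 scale (two-sided exact permutation test with labels permuted within line, p = 0.005, the smallest it can give, adjusted p = 0.03 over 12 tests). The difference came to 1.91 for THP-1 and to 2.07 for U-937, where 3 against 3 libraries cannot give an exact permutation p below 0.1.

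BLVRB and BLVRA, the genes named as biliverdin reductases B and A, were both measured at more than 3 FPKM in every library. BLVRB rose with honokiol in the test over both lines. Levels of mRNA do not show which of them acts on the biliverdin that heme oxygenase makes. BLVRB (ENSG00000090013, chr19:40447765-40465764, minus strand) was at 3.92, 4.78 and 5.92 FPKM in THP-1 with DMSO and at 9.49, 12.09 and 12.8 FPKM with honokiol. In U-937 it was at 17.11, 31.37 and 19.91 FPKM with DMSO and at 31.6, 41.29 and 37.97 FPKM with honokiol. No honokiol library overlapped the DMSO libraries of its line, although U-937 DMSO replicate 2 (31.37 FPKM) came close to the lowest honokiol library (31.6 FPKM). Its mean change over both lines was 0.89 (1.85-fold, standard error 0.16, adjusted p = 0.017 in the quasi-likelihood test of edgeR), which passed the limit on the adjusted p-value but not that on the fold change. Among all genes, 2.65% passed the limit on the adjusted p-value whatever their fold change, and among the 10 it was 3, HMOX1, BLVRB and BACH1. The adjusted p was 0.0506 without both libraries of high mitochondrial share and 0.0525 without THP-1 honokiol replicate 3. Without U-937 DMSO replicate 2 the change was 1.04, past both limits, and 2 of the 10 genes were then called. By line the log2 fold change was 1.18 in THP-1 (adjusted p = 0.0955) and 0.61 in U-937 (adjusted p = 0.24), from the same test.

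BLVRA (ENSG00000106605, chr7:43758680-43807342, plus strand) was at 6.69, 9.66 and 11.65 FPKM in THP-1 with DMSO and at 12.47, 17.1 and 18.45 FPKM with honokiol, with no overlap. In U-937 the DMSO values of 11.19, 18.55 and 16.15 FPKM overlapped the honokiol values of 16.27, 21.14 and 18.83 FPKM. The mean change over both lines was 0.46 (95% interval 0.13 to 0.80, adjusted p = 0.12 in the quasi-likelihood test of edgeR) and was not called. The ratio BLVRA/BLVRB was lower with honokiol in every library than in the DMSO libraries of the same line. In THP-1 its mean was 1.90 ± 0.168 with DMSO and 1.39 ± 0.067 with honokiol, and in U-937 it was 0.686 ± 0.113 and 0.508 ± 0.010 (SD, n = 3). Over both lines the difference was -0.43 on the log2 scale (two-sided exact permutation test, p = 0.005, adjusted p = 0.03 over 12 tests).

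BACH1, the heme-binding repressor of HMOX1, also rose in the test over both lines. BACH1 (ENSG00000156273, chr21:29194071-29630751, plus strand) was at 4.86, 5.05 and 5.63 FPKM in THP-1 with DMSO and at 6.11, 9.32 and 7.76 FPKM with honokiol. In U-937 it was at 3.26, 4.05 and 4.08 FPKM with DMSO and at 6.58, 5.81 and 6.85 FPKM with honokiol. The treatments did not overlap in either line, and all 6 honokiol libraries were above all 6 DMSO libraries. The mean change over both lines was 0.59 (1.51-fold, 95% interval 0.35 to 0.83, adjusted p = 0.0191 in the quasi-likelihood test of edgeR), again past the limit on the adjusted p-value alone. This adjusted p was 0.0575 without both libraries of high mitochondrial share. It was 0.0505 without THP-1 DMSO replicate 2, 0.0521 without THP-1 honokiol replicate 2, 0.0600 without THP-1 honokiol replicate 3 and 0.0558 without U-937 honokiol replicate 3. By line the log2 fold change was 0.52 in THP-1 (adjusted p = 0.291) and 0.67 in U-937 (adjusted p = 0.0995), both in the quasi-likelihood test of edgeR. With DESeq2 the adjusted p was 0.153 for THP-1 (log2 fold change 0.52) and 0.00521 for U-937 (0.66), and BACH1 was not called in either line. The exons that BACH1 shares with LINC00189 and GRIK1 belong to genes at no more than 0.1 FPKM.

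NFE2L2 and KEAP1, which encode NRF2 and the adaptor that has it degraded, did not pass any test of honokiol. NFE2L2 (ENSG00000116044, chr2:177227595-177287777, minus strand) was at 5.68, 10.75 and 9.59 FPKM in THP-1 with DMSO and at 9.22, 9.8 and 8.51 FPKM with honokiol. In U-937 the DMSO values of 15.41, 15.09 and 10.96 FPKM overlapped the honokiol values of 10.97, 12.25 and 13.83 FPKM. Its mean change was -0.12 (95% interval -0.44 to 0.20, adjusted p = 0.709 in the quasi-likelihood test of edgeR). The treatments overlapped in both lines, and DMSO replicate 1 of THP-1, a library of high mitochondrial share, was the lowest of all 12. NFE2L2 shares 7.03% of its exon bases with AC019080.1 on the same strand, a gene at up to 1.58 FPKM, and the counting could have split reads between them. KEAP1 (ENSG00000079999, chr19:10486125-10503356, minus strand) lay between 16.39 and 20.5 FPKM in the 6 THP-1 libraries and between 25.62 and 36.23 FPKM in the 6 U-937 libraries. Its mean change was -0.04 (95% interval -0.26 to 0.17, adjusted p = 0.855 in the quasi-likelihood test of edgeR). Both regulators act largely at the protein level, which mRNA does not show.

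The ratio of the repressor to the activator, BACH1/NFE2L2, had a mean in THP-1 of 0.638 ± 0.198 under DMSO and of 0.842 ± 0.156 under honokiol (SD, n = 3), and the libraries overlapped. In U-937 it was 0.284 ± 0.082 with DMSO and 0.523 ± 0.067 with honokiol, with no overlap. Over both lines the difference of 0.67 on the log2 scale missed the adjusted limit (two-sided exact permutation test, p = 0.015, adjusted p = 0.06 over 12 tests). The adjusted p of this exact permutation test was 0.04 without THP-1 DMSO replicate 1, without THP-1 honokiol replicate 1 or without U-937 DMSO replicate 3.

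**Figure D2:**
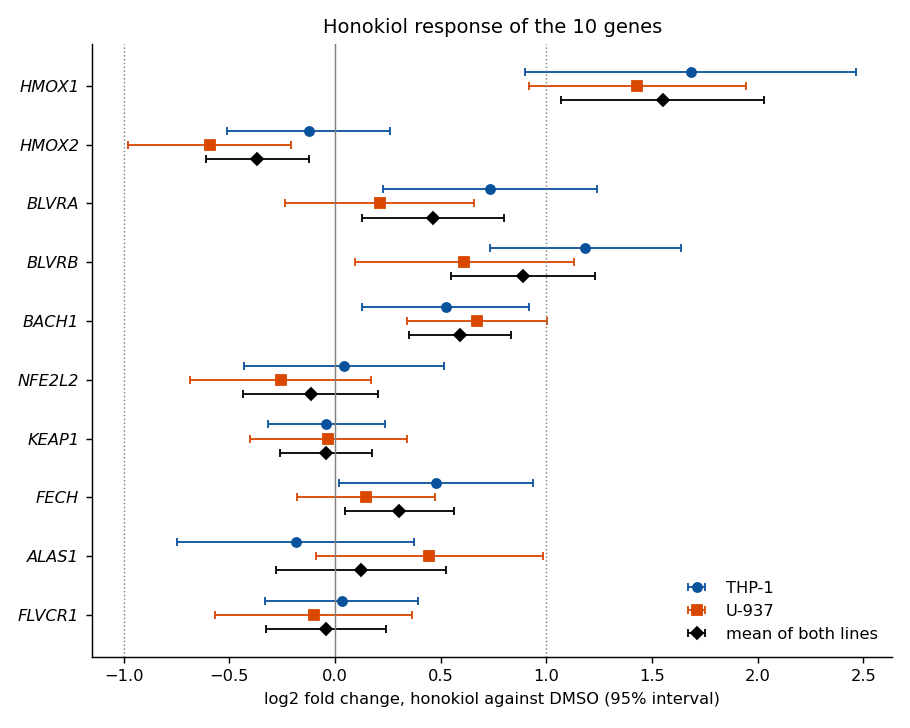
Log2 fold change of honokiol against DMSO (x axis) for the 10 genes, in THP-1, in U-937 and as the mean of both lines, from edgeR's quasi-likelihood fits; bars are 95% intervals, and the dotted lines mark the limit of 1 in either direction. The interval of HMOX1 over both lines lies wholly above 1, while those of NFE2L2, KEAP1, ALAS1 and FLVCR1 include 0.

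ALAS1 and FECH are the first and the last enzyme of heme synthesis, ALAS1 setting its rate outside red cells and FECH inserting the iron. ALAS1 (ENSG00000023330, chr3:52198086-52214327, plus strand) had the highest FPKM of the 10 genes in every group. It was at 100.08, 57.99 and 109.96 FPKM in THP-1 with DMSO and at 72.83, 87.35 and 85.87 FPKM with honokiol, and these libraries overlapped. In U-937 it was at 62.35, 44.8 and 34.71 FPKM with DMSO and at 64.52, 76.89 and 66.57 FPKM with honokiol. The honokiol libraries of U-937 were all above its DMSO libraries, and replicate 1 of both treatments came closest. The log2 fold change was -0.19 in THP-1 (adjusted p = 0.763) and 0.45 in U-937 (95% interval -0.09 to 0.98, adjusted p = 0.381), both in the quasi-likelihood test of edgeR.

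FECH (ENSG00000066926, chr18:57544377-57586702, minus strand) was at 1.28, 1.18 and 1.59 FPKM in THP-1 with DMSO and at 1.67, 1.8 and 2.41 FPKM with honokiol, with no overlap. In U-937 the DMSO values of 3.54, 3.73 and 4.33 FPKM overlapped the honokiol values of 4.69, 4.13 and 4.82 FPKM. Its mean change over both lines was 0.30 (95% interval 0.05 to 0.56, adjusted p = 0.177 in the quasi-likelihood test of edgeR). The ratio ALAS1/FECH in THP-1 was 65.5 ± 14.9 under DMSO and 42.6 ± 6.51 under honokiol, without overlap, and in U-937 it was 12.5 ± 4.82 and 15.4 ± 2.79, with overlap (SD, n = 3). Over both lines it differed by -0.13 on the log2 scale (two-sided exact permutation test, p = 0.655). The difference between the lines in this change, examined after the values were seen, was 0.96 (two-sided exact permutation test, p = 0.045, adjusted p = 0.18 over 4 ratios). For the other 3 ratios the exact permutation p of the difference between the lines was 0.41 to 0.935.

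FLVCR1, a heme exporter of the cell surface that also carries choline, had nearly equal levels with both treatments in THP-1. FLVCR1 (ENSG00000162769, chr1:212858275-212899363, plus strand) was at 2.7, 2.79 and 2.33 FPKM with DMSO and at 2.82, 2.69 and 2.81 FPKM with honokiol in that line. In U-937 the DMSO values of 5.29, 8.97 and 6.87 FPKM spanned the honokiol values of 6.99, 6 and 7.85 FPKM. Its mean change was -0.04 (95% interval -0.33 to 0.24, adjusted p = 0.900 in the quasi-likelihood test of edgeR).

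**Figure D3:**
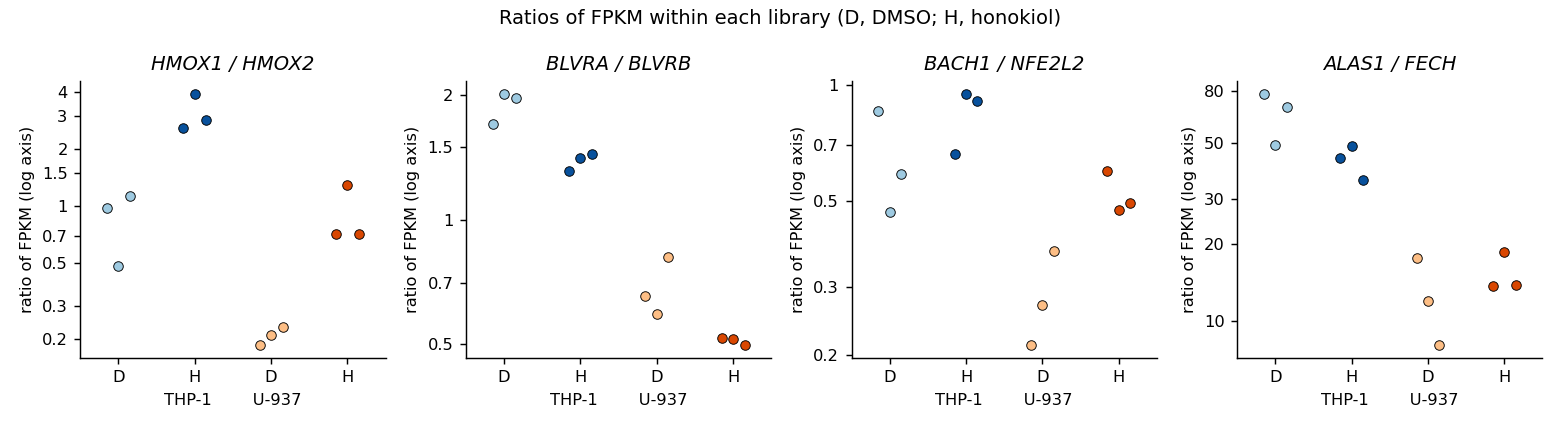
Ratios of the FPKM of paired genes within each library (y axis, logarithmic), with D for DMSO and H for honokiol; each point is 1 library. HMOX1/HMOX2 is higher and BLVRA/BLVRB lower in each honokiol library than in the DMSO libraries of the same line, while ALAS1/FECH lies lower in THP-1 and overlaps in U-937.

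Counted over the 10 genes, the honokiol libraries lay wholly above the DMSO libraries for 5 genes in THP-1 (HMOX1, BLVRA, BLVRB, BACH1 and FECH) and wholly below for 0, where 13.0% of all genes were wholly above and 7.62% wholly below. In U-937 they lay wholly above for 4 (HMOX1, BLVRB, BACH1 and ALAS1) and below for 1 (HMOX2), where the rates over all genes were 16.7% and 7.50%. HMOX1, BLVRB and BACH1 lay above in both lines, as did 3.44% of all genes, and 0 of the 10 lay below in both. The median change over both lines was 0.21 for the 10 genes and 0.01 for all genes tested.

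The lines were not shown to differ in their response. The difference of the honokiol change, U-937 minus THP-1, had an adjusted p-value under 0.05 for 0 of the 10 genes in the quasi-likelihood test of edgeR, where 0.111% of all genes were called. With p left unadjusted and under 0.05 it was also 0, against 9.37% of all genes, and DESeq2 and limma-trend called 0. For HMOX1 the difference was -0.26 on the log2 scale with a 95% interval of -1.21 to 0.68, which leaves room for a response more than 1 unit smaller in U-937. For BLVRB the difference was -0.58 (95% interval -1.26 to 0.09) and for HMOX2 it was -0.48 (95% interval -0.97 to 0.01).

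The lines themselves differed at baseline in most of the 10 genes. With DMSO, BLVRB was 4.53-fold higher in U-937 than in THP-1 (log2 difference 2.18, standard error 0.23, adjusted p = 8.88e-06), HMOX2 3.14-fold (1.65, standard error 0.16, adjusted p = 5.11e-06), FECH 2.76-fold (1.46, standard error 0.17, adjusted p = 1.97e-05) and FLVCR1 2.60-fold (1.38, standard error 0.19, adjusted p = 6.3e-05), all in the quasi-likelihood test of edgeR. These 4 of the 10 genes passed both limits, all as higher in U-937, where 34.0% of all genes passed both and 14.4% as higher. The libraries of U-937 lay wholly above those of THP-1 for 6 of the 10 genes, where this held for 27.7% of all genes, and HMOX1, BLVRA and ALAS1 overlapped. A further 5 passed the limit on the adjusted p-value alone, so that 9 of the 10 reached it, against 52.9% of all genes. BLVRA (0.67), KEAP1 (0.66) and NFE2L2 (0.65) were higher in U-937, and ALAS1 (-0.96) and BACH1 (-0.50) were lower there. ALAS1 also passed both limits, as the fifth gene, without both libraries of high mitochondrial share (-1.11, adjusted p = 0.00635), without THP-1 replicate 2 (-1.22, adjusted p = 0.00117) and without U-937 replicate 1 (-1.26, adjusted p = 0.00209). For BLVRA, NFE2L2 and BACH1 this was lost in single fits that left out a DMSO library. The adjusted p was 0.0787 for BLVRA without THP-1 replicate 1, 0.0528 without THP-1 replicate 2 and 0.0890 without U-937 replicate 2. For NFE2L2 it was 0.0658 without THP-1 replicate 1, 0.0754 without U-937 replicate 1 and 0.0595 without U-937 replicate 2, and for BACH1 it was 0.0577 without U-937 replicate 1. Without both libraries of high mitochondrial share it was 0.168 for NFE2L2 and 0.0905 for BACH1. HMOX1 did not pass the test (log2 difference -0.36, 95% interval -1.03 to 0.31, adjusted p = 0.354), and without both libraries of high mitochondrial share its difference was 0.016 (adjusted p = 0.974). The erythroid markers summed to 0.68 to 0.94 FPKM in THP-1 and to 1.51 to 1.82 FPKM in U-937 with DMSO, and their part in these differences was not tested. Of these markers, KLF1 was at 0.45 to 0.63 FPKM in THP-1 and at 1.44 to 1.54 FPKM in U-937 with DMSO.

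Within a group, the order of the 10 genes by mean FPKM also differed between the lines. In THP-1 with DMSO HMOX1 (3.29 FPKM) stood below HMOX2 (3.82 FPKM), and with honokiol (11.4 FPKM) it stood above HMOX2 (3.66 FPKM) and next to BLVRB (11.5 FPKM). In U-937 HMOX1 had the lowest mean of the 10 genes with DMSO (2.62 FPKM), and with honokiol (7.69 FPKM) it was below HMOX2 (8.76 FPKM), whose libraries it overlapped.

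The genes whose pattern was most like that of HMOX1 were sought among 12342 genes tested in both lines, by Pearson's r over the 12 libraries on log2(FPKM + 0.5). The libraries share line, treatment and scaling, and r is given as a description only. The 5 highest were CIR1 (r = 0.94), SNX18 (0.93), SLC25A46 (0.91), ADAM17 (0.91) and GOT1 (0.89). CIR1 went from a mean of 7.55 to 9.27 FPKM in THP-1 and from 7.07 to 8.41 FPKM in U-937, a smaller step than that of HMOX1 in the same libraries. SNX18 went from 5.17 to 8.71 FPKM in THP-1 and from 4.78 to 6.87 FPKM in U-937. Among the other 9 genes BACH1 was the most alike, at rank 14 (r = 0.87). BLVRA followed at rank 1484 (r = 0.50), ALAS1 at 1746 (0.47) and BLVRB at 4196 (0.24), and HMOX2 was at rank 10881 (-0.38).

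**Figure D4:**
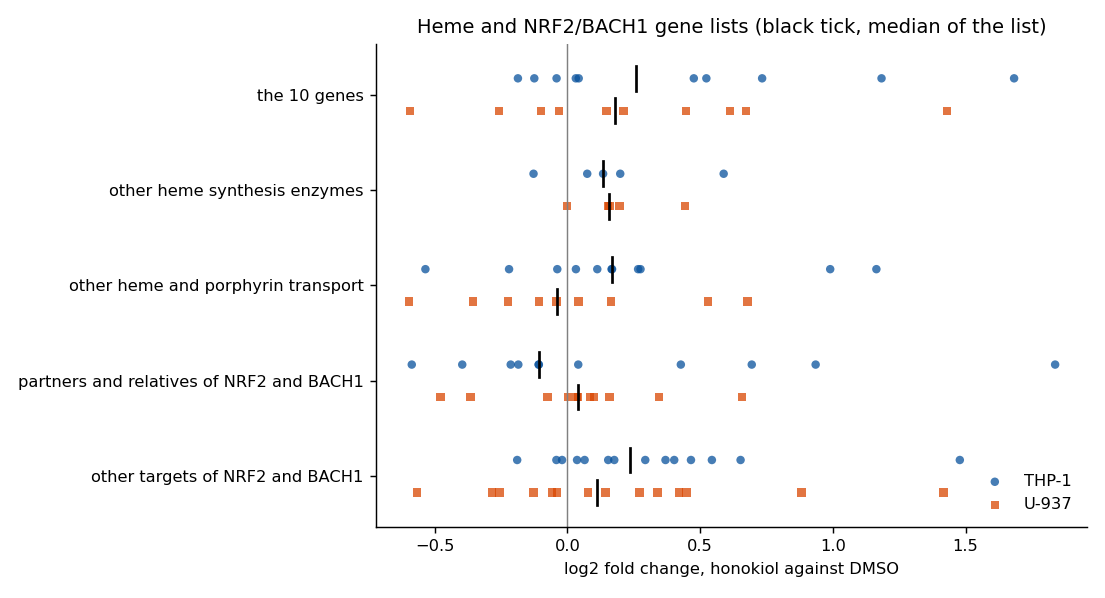
Log2 fold change of honokiol against DMSO (x axis) for the 10 genes and 4 lists of related genes, with circles for THP-1 and squares for U-937; each point is a tested gene, and the black tick is the median of the list. The medians lie between -0.11 and 0.26, and single genes such as MAFF in THP-1 (1.84) lie far to the right of their list. The size of this MAFF change rests on low values of 0.3 to 0.89 FPKM with DMSO.

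Among the other heme synthesis enzymes examined no gene was called. Of the 6 enzymes ALAS2, ALAD, UROS, UROD, CPOX and PPOX, all except ALAS2, the form of red cell precursors, were tested over both lines. Among these 5, 0 were called in the quasi-likelihood test of edgeR, against 0.762% of all genes, and the median change was 0.13. At an unadjusted p-value under 0.05, 1 was higher and 0 lower, against 10.3% and 10.2% of all genes. PPOX, which makes protoporphyrin, the substrate of FECH, had the highest change, 0.51 (adjusted p = 0.184). ALAD, the second enzyme, had the lowest, 0.0055 (adjusted p = 0.999). In the comparison of the lines with DMSO 0 of the 5 passed both limits, against 34.0% of all genes.

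Of 14 other genes for heme and porphyrin transport 11 were tested over both lines and 0 were called, against 0.762% of all genes, and the median was 0.03. At an unadjusted p-value under 0.05, 3 were higher and 0 lower, where the rates over all genes were 10.3% and 10.2%. LRP1, the receptor that takes up heme bound to hemopexin, had the highest change, 0.93 (adjusted p = 0.225 in the quasi-likelihood test of edgeR). It was at 4.85 ± 0.881 FPKM in THP-1 with DMSO and at 11.3 ± 3.76 FPKM with honokiol, without overlap (SD, n = 3), and at no more than 0.27 FPKM in U-937. In THP-1, the only line where it passed the filter, its change was 1.16 (adjusted p = 0.174 in the same test). There it passed both limits with DESeq2 (adjusted p = 0.00368) and with edgeR without THP-1 honokiol replicate 1 (1.42, adjusted p = 0.0449). The other alternatives did not reach the limit on the adjusted p-value. ABCB6, a porphyrin transporter, had the lowest change over both lines, -0.49 (adjusted p = 0.346 in the quasi-likelihood test of edgeR). In U-937 it was at 0.23 to 0.53 FPKM with DMSO and at 0.24 to 0.4 FPKM with honokiol, and it did not pass the filter there. Its value over both lines thus rests in part on values near 0. At baseline 3 of the 11 passed both limits, against 34.0% of all genes. SLC25A38 was higher in U-937 (log2 difference 1.29, adjusted p = 0.000136), while LRP1 (-5.53, adjusted p = 3.17e-05) and SLC46A1 (-1.11, adjusted p = 0.00804) were lower there, from the same test. LRP1, at no more than 0.17 FPKM in U-937 with DMSO, passed the filter only through THP-1. The size of its difference rests on values near 0, and it is among the 3.

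Of 12 partners and relatives of NRF2 and BACH1 11 were tested over both lines and 0 were called, where 0.762% of all genes were, and the median was -0.01. At an unadjusted p-value under 0.05, 2 were higher and 1 lower, beside 10.3% and 10.2% of all genes. MAFF, a small MAF protein that pairs with both factors, had the highest change, 1.08 (standard error 0.28, adjusted p = 0.0652 in the quasi-likelihood test of edgeR). It was at 0.553 ± 0.304 FPKM in THP-1 with DMSO and at 2.04 ± 0.570 FPKM with honokiol, without overlap, and at 1.91 ± 0.688 and 2.61 ± 0.679 FPKM in U-937, with overlap (SD, n = 3). The median in THP-1 with DMSO was 0.47 FPKM, under the filter limit of 0.5 FPKM. In the THP-1 fit MAFF therefore passed the filter only with the help of its honokiol libraries. The sizes of its honokiol change and of its baseline difference rest on these low values. MAFF passed both limits with DESeq2 (adjusted p = 0.00463), with edgeR on the genes that passed the filter in both lines (1.09, adjusted p = 0.04996) and with edgeR without THP-1 DMSO replicate 3 (1.33, adjusted p = 0.0335). It passed the limit on the adjusted p-value alone with limma-trend on log2(FPKM + 0.5) (adjusted p = 0.0475), and it did not reach this limit in the other alternatives. NFE2 had the lowest change, -0.28 (adjusted p = 0.588 in the quasi-likelihood test of edgeR). At baseline 3 of the 11 passed both limits, against 34.0% of all genes. MAFF (1.77, adjusted p = 0.00307) and SQSTM1 (1.21, adjusted p = 0.00803), an adaptor that draws KEAP1 into autophagy, were higher in U-937, and NFE2 (-1.52, adjusted p = 0.00458) was lower.

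Of 15 other targets of NRF2 and BACH1 all were tested over both lines, and 1 was called, where 0.762% of all genes were. SLC7A11, the cystine transporter, was the gene called, at 1.44 (standard error 0.21, adjusted p = 0.00684 in the quasi-likelihood test of edgeR), the same adjusted p as HMOX1. In all, 3 of the 15 were higher and 0 lower at an unadjusted p-value under 0.05, against 10.3% and 10.2% of all genes, and the median was 0.12. The other 2 of these 3 were PIR (0.53, adjusted p = 0.0630) and GCLC (0.43, adjusted p = 0.220), which makes the catalytic part of the first enzyme of glutathione synthesis. NQO1, a classic NRF2 target, was at 0.04 (adjusted p = 0.927), TXNRD1 at 0.03 (adjusted p = 0.963) and GCLM at 0.12 (adjusted p = 0.763). The iron storage genes FTH1 (0.52, adjusted p = 0.365) and FTL (0.42, adjusted p = 0.254) did not pass the test either, and these 7 genes other than SLC7A11 were named after their values were seen. The list therefore held 1 gene that rose beside HMOX1 and 14 that did not pass. At baseline 8 of the 15 passed both limits, against 34.0% of all genes. GCLC (1.97), GCLM (1.14), TXNRD1 (1.17), SLC7A11 (1.34), OSGIN1 (3.34) and PIR (2.88) were higher in U-937 and SLC40A1 (-1.85) and ME1 (-7.85) were lower, with adjusted p-values of 5.11e-07 to 0.00491 in the same test. ME1 was at no more than 0.07 FPKM in U-937 with DMSO, and OSGIN1 at no more than 0.25 FPKM in THP-1 with DMSO. Each passed the filter only through the other line, so that the size of its difference rests on values near 0. Both are among the 8.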

How the data were processed

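The 12 libraries hold poly(A) mRNA, with 3 libraries per group. The authors deposited FPKM values and whole-number estimated counts for 36866 genes. The authors scaled FPKM by transcript length and by library size and left the estimated counts without normalization. The submitters' processing notes name HISAT2 2.0, StringTie 1.3.0, Bowtie 0.12.2 and the mouse build mm8 without a role. Coordinates match GRCh38, since 87.7% of 35762 genes share a start or an end with GENCODE 29. Strand use in counting is not given in the sources used here.

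Genes with at least 0.5 FPKM in at least 3 libraries of a fit were tested, 14600 in THP-1, 13726 in U-937 and 16283 in the fit of both lines. The estimated counts were TMM normalized and tested by edgeR 4.0.16 in R 4.3.3. The study's methods give the call rule, an adjusted p-value under 0.05 with an absolute log2 fold change over 1. Ratios of FPKM were tested by exact permutation. limma 3.58.1 and DESeq2 1.42.0 served as alternatives, with others of filter, scaling, pseudocount, count size and left-out libraries. The edgeR step was tested on simulated data. Precision is limited by the 3 libraries a group and counts of 314 to 20042 per gene, and intervals come from the fits.

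The members, lists and ratios were chosen with earlier results of these data known. All 10 members are named. Of each other list the genes called are named, or otherwise those of highest and lowest mean change over both lines, and the 5 genes of highest r to HMOX1. Some genes of the other lists are not reported here and enter no count or median of a list. Overlaps use GENCODE 29 exons within the span the table gives.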

Additional observations from a re-analysis of the deposited data

How the results depend on the processing

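The call of HMOX1 over both lines held under 7 of the 8 settings other than left-out libraries, and all ranges below are log2 values. With the replicate number as a block, HMOX1 was at 1.57 (adjusted p = 0.0623 in the quasi-likelihood test of edgeR), and 0 of the 10 genes passed both limits. BACH1 was at 0.58 (adjusted p = 0.102) and SLC7A11 at 1.43 (adjusted p = 0.0658) in that fit. Same-numbered libraries deviated with correlations of -0.23 to 0.15 in THP-1 and -0.18 to -0.10 in U-937, so that the numbers were not taken to pair them. The block could not be fitted for the difference between lines with DMSO. With DESeq2, 2 genes passed both limits in THP-1 and 1 in U-937, HMOX1 being at 1.67 (adjusted p = 0.000175) and 1.42 (adjusted p = 1.55e-06), and the cause was not tested. Leaving out each library gave HMOX1 1.39 to 1.91 in THP-1, 1.27 to 1.54 in U-937 and 1.40 to 1.67 over both lines, and 0 to 0, 0 to 0 and 1 to 2 genes past both limits, 2 without U-937 DMSO replicate 2. The difference between lines in the HMOX1 response was -0.50 to 0.0297, above 0 without THP-1 DMSO replicate 2, and the baseline difference of HMOX1 was -0.66 to -0.13, but 0.016 without both libraries of high mitochondrial share.

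The ratio HMOX1/HMOX2 over both lines ranged from 1.81 to 2.11 and BLVRA/BLVRB from -0.48 to -0.37, each with an adjusted p of 0.06 from the exact permutation test without any 1 of the 3 U-937 honokiol libraries. Before adjustment, HMOX1/HMOX2 had p = 0.005 in these permutation tests, the same as with all libraries, and BLVRA/BLVRB had p = 0.01. BACH1/NFE2L2 ranged from 0.57 to 0.79 and ALAS1/FECH from -0.27 to 0.015, above 0 without U-937 DMSO replicate 1.

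Directions that turned belonged to values that never passed a test. Over left-out libraries in THP-1, NFE2L2 ranged from -0.16 to 0.20, KEAP1 from -0.073 to 0.020 and FLVCR1 from -0.066 to 0.11. In U-937 KEAP1 ranged from -0.16 to 0.059, FLVCR1 from -0.25 to 0.10 (0.0995) and NFE2 from -0.37 to 0.39. Over both lines KEAP1 ranged from -0.11 to 0.0037, ALAS1 from -0.0022 to 0.27, FLVCR1 from -0.12 to 0.060 and ALAD from -0.041 to 0.039. The difference between lines ranged from -0.0050 to 0.29 for BACH1, -0.13 to 0.095 for KEAP1 and -0.29 to 0.063 for FLVCR1. With limma-trend on log2(FPKM + 0.5) and on log2(FPKM + 1), KEAP1 was at 0.016 and 0.015 in THP-1, 0.060 and 0.059 in U-937, 0.038 and 0.037 over both and 0.045 and 0.044 in the difference, and FLVCR1 at 0.0029 and 0.0014 in U-937 and 0.041 (0.0405) and 0.034 over both. ALAD was at -0.0012 with RLE size factors, -0.0012 with DESeq2 and -0.0026 without both libraries of high mitochondrial share, where the difference between lines was 0.0079 for NFE2L2 and 0.12 for KEAP1. NFE2 in U-937 was at -0.088 with the replicate block.

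With 3 libraries a group, the 95% intervals of the differences between lines were wide, as for HMOX1 (-1.21 to 0.68). The dose of each sequenced sample is not given in the sources used here, and the deposited counts are estimates.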
